A study of Mus musculus with 6 samples.

Results

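The BCL2 family genes Bcl2, Bcl2l1, Mcl1, Bcl2l11, Bad, Bak1, Bid, Bbc3 and Pmaip1 were followed through every probe set that the platform annotation gives to 1 of these 9 symbols alone. They took 29 of 45037 probe sets, from 1 for Bbc3 and for Pmaip1 to 6 for Mcl1, out of 18193 genes with such a probe set. Signals came from Affymetrix arrays, 1 array per mouse, of CD71+Ter119+ cells sorted from the bone marrow of female mice aged 6 weeks. CD71 is the transferrin receptor and Ter119 an antigen of the red cell lineage. The knockout group was 3 mice with both Bcl11a alleles flanked by loxP sites and with EpoR-Cre (Bcl11a fl/fl EpoR-Cre+), a Cre recombinase expressed from the erythropoietin receptor gene. The control group was 3 wild-type mice (Bcl11a +/+). The labels name Cre for the knockout mice alone, so an effect of Cre cannot be told apart from that of Bcl11a loss. The labels call each array a separate mouse, and they do not name litters.

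BCL2 family proteins decide whether the outer membrane of the mitochondrion stays closed. The survival proteins BCL-xL (from Bcl2l1), MCL1 and BCL2 bind and hold back the pore-forming effectors BAK (from Bak1) and BAX. The BH3-only proteins BIM (Bcl2l11), PUMA (Bbc3), NOXA (Pmaip1), BAD and BID occupy the survival proteins or engage the effectors, and an open membrane releases cytochrome c, which starts the caspases. In red cell precursors erythropoietin, through its receptor, JAK2 and STAT5, sustains this balance on the side of survival, and BCL-xL is known to be needed late in the mouse lineage, while hemoglobin accumulates.

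None of the 29 BCL2 family probe sets passed the adjusted p threshold of 0.05 (limma, p adjusted by Benjamini-Hochberg across the whole array, lowest adjusted p = 0.174). Over all probe sets 0.147% passed it. The 95% intervals of the log2 changes, knockout minus control, ran from -0.93 at the lowest to 0.83 at the highest, so on this scale of log2(intensity + 16) no interval reached 1 log2 unit in either direction. The scale shrinks the changes of dim probe sets, and for 1 of them, 1425716_s_at of Bak1, the change was -1.05 with a constant of 1. In all, 13 changes lay above 0 and 16 below, with a median of -0.01, against a median of -0.006 over all probe sets. At an unadjusted p under 0.05, 2 of the 29 were higher and 1 lower in the knockout mice, where over all probe sets 7.21% were higher and 5.21% lower. The 2 were probe sets of Bcl2l1 (1420888_at and 1426191_a_at) and the 1 was the dimmer probe set of Bak1. In 3 of the 29 the knockout mice lay wholly above the controls, as they did in 10.6% of all probe sets. In 2 they lay wholly below, against 8.91% of all probe sets. These shares stood near the background.

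**Figure D1:**
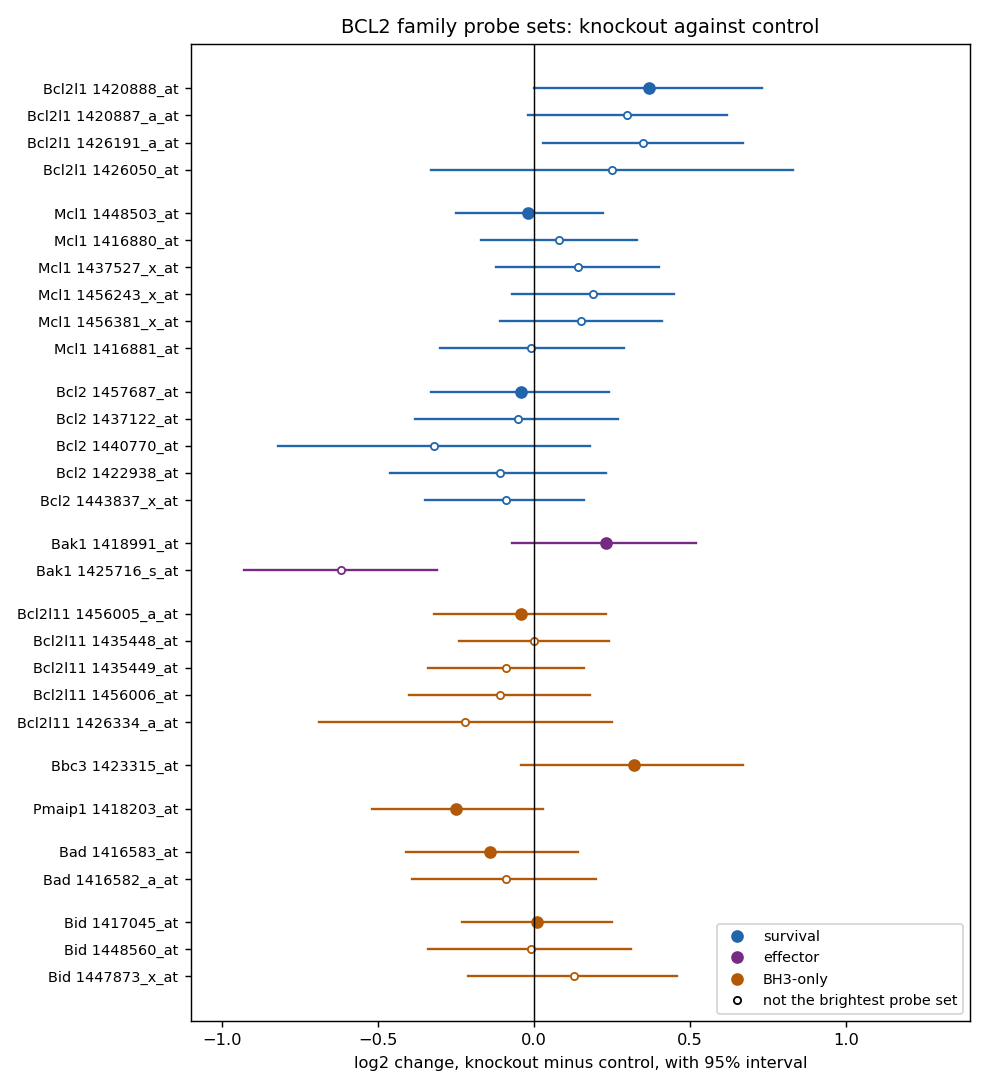
Log2 change, knockout minus control, of each of the 29 probe sets (points, filled for the brightest of each gene) with its 95% interval (lines), coloured by role. The intervals lie between -0.93 and 0.83, and the 4 points of Bcl2l1 are above 0 while the 5 of Bcl2 are below.

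The arrays were of like level and the genotype labels were checked on 2 genes. Array medians lay between 67.5 and 70.9, and the correlation of log2 values over probe sets was 0.9856 to 0.9864 among the knockout mice and 0.9812 to 0.9846 among the controls. Bcl11a was read by 7 probe sets, of which 0 passed. Its brightest had intensities of 1286, 1419 and 1190 in the knockout mice, against 1475, 1553 and 1450 in the controls. The log2 change was -0.20 (limma, adjusted p = 0.502), and the position of the probes against the floxed segment was not analysed here. Hbb-y, an embryonic globin that BCL11A represses, had 19266, 20104 and 19491 in the knockout mice, against 67.4, 71.6 and 80.9 in the controls.

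Markers of other blood cells were bright in these sorted cells, which bears on every value below. All 9 measured erythroid markers were above the array median on every array, and so were all 10 neutrophil markers, all 9 pre-B markers, all 9 macrophage markers and all 5 basophil and mast cell markers. S100a8, a neutrophil calcium-binding protein, was the brightest probe set on each array, at 38113 to 39377 in the knockout mice and 39661 to 40360 in the controls. The summed intensity of the erythroid markers was 105917 to 118216 in the knockout mice and 80966 to 100277 in the controls. That of the pre-B markers was 11528 to 15687 in the knockout mice and 16401 to 19128 in the controls. By single markers the knockout mice lay wholly below in 3 of the 9 (Igll1, Vpreb1 and Dntt), and the other 6 overlapped. Over all probe sets 8.91% lay wholly below. The sums of the neutrophil markers (195991 to 205210 in the knockout mice, 211975 to 214367 in the controls) and of the basophil and mast cell markers (4503 to 6092 in the knockout mice, 6610 to 7012 in the controls) were also lower in every knockout mouse. Singly, 6 of the 10 neutrophil markers and 2 of the 5 basophil and mast cell markers lay wholly below. The sums overlapped for macrophage markers (10923 to 11772 in the knockout mice, 9919 to 11238 in the controls), T cell markers (1414 to 1708 in the knockout mice, 1383 to 1602 in the controls) and megakaryocyte markers (1509 to 2521 in the knockout mice, 1660 to 2105 in the controls), and in the T cell and the megakaryocyte list 4 of 6 markers each were above the array median on every array. No marker was at 0, and none passed the test. In bulk samples fewer cells of a type and less RNA per cell cannot be told apart, and the part of cell make-up in the BCL2 family values was not tested.

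**Figure D2:**
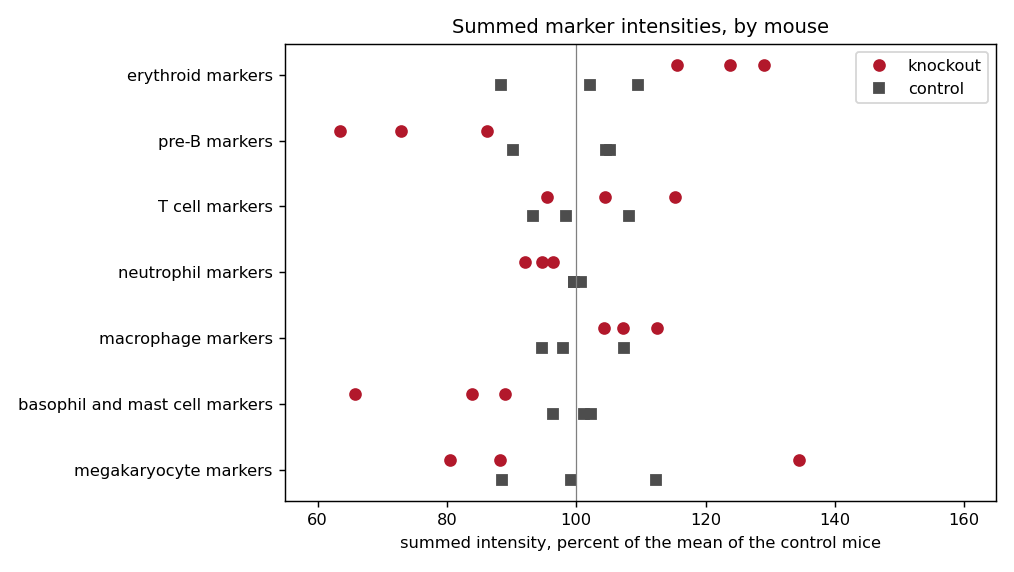
Summed linear intensity of the measured markers of each cell type, per mouse, as a percent of the mean of the 3 control mice (knockout, red circles; control, grey squares). The knockout mice are all to the right of the controls for erythroid markers and all to the left for pre-B, neutrophil, and basophil and mast cell markers.

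Bcl2l1, which encodes the survival protein BCL-xL, stood higher in the knockout mice in all 4 of its probe sets, and none passed. Its brightest, 1420888_at, had intensities of 2004, 1999 and 2023 in the knockout mice, against 1800, 1255 and 1664 in the controls. The knockout mice lay close together and above all 3 controls, of which mouse 2 was the lowest. The means were 2008 ± 12.7 in the knockout mice and 1573 ± 284 in the controls (SD, n = 3 each), a log2 change of 0.37 with an interval from 0.00 to 0.73 (limma, adjusted p = 0.402). Without control mouse 2 the change was 0.21, and without control mouse 1 it was 0.47, so control mouse 2 moved the value by over 1.5 times.

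The next probe sets of Bcl2l1 pointed the same way. The probe set 1420887_a_at had 387, 346 and 365 in the knockout mice, against 334, 251 and 302 in the controls, a log2 change of 0.30 (limma, adjusted p = 0.423) and of 0.19 without control mouse 2. The probe set 1426191_a_at had 132, 152 and 159 in the knockout mice, against 109, 98.7 and 131 in the controls, a log2 change of 0.35 (limma, adjusted p = 0.365). In both, the groups did not overlap and control mouse 2 was again the lowest. These 3 are the 3 of 29 counted above, and the exact two-sided permutation p of each was 0.1, the smallest that 3 against 3 mice can give. The fourth, 1426050_at, was dim at 25.6, 28.4 and 15.2 in the knockout mice, against 17.2, 26.7 and 8.29 in the controls, all below the array medians, and its groups overlapped (log2 change 0.25, and 0.04 without control mouse 3). Probe sets of 1 gene read the same RNA of the same mice and are not separate evidence.

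**Figure D3:**
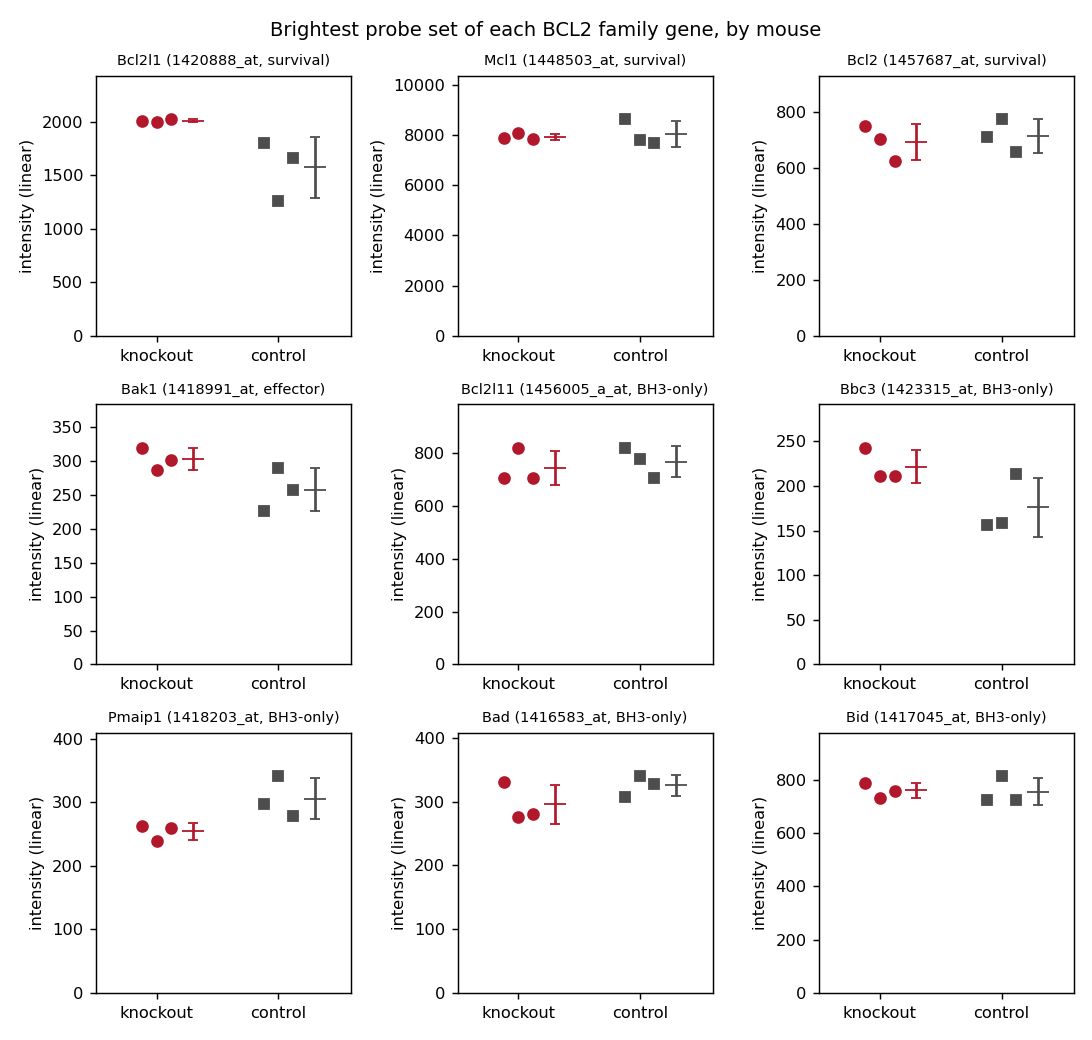
Linear intensity of the brightest probe set of each of the 9 genes in the 3 knockout (red circles) and 3 control mice (grey squares), with the mean and SD beside the points; each panel has its own axis from 0. The groups are apart for Bcl2l1, with knockout above, and for Pmaip1, with knockout below, and overlap in the other 7 panels.

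The erythroid markers put the 3 control mice in the same order as the 2 brighter Bcl2l1 probe sets did, and the 2 dimmer ones had other orders. On the log2 scale, centred on the mean of the 6 arrays, 1420888_at was at 0.18, 0.18 and 0.19 in the knockout mice, against 0.03, -0.49 and -0.09 in the controls. The mean of the 9 erythroid markers was at 0.08, 0.21 and 0.30 in the knockout mice, against -0.01, -0.44 and -0.15 in the controls. Control mouse 2 was the lowest in both. Among the knockout mice the orders differed. There 1420888_at was nearly level, and 1420887_a_at (0.23, 0.07 and 0.15) was highest in mouse 1, where the marker mean was lowest. The dimmer 1426191_a_at (0.04, 0.22 and 0.27) followed the order of the markers in these mice. In 7 of the 9 markers, each read by its brightest probe set, the knockout mice lay wholly above the controls. Over all probe sets, dim ones included, 10.6% did. Epor, the erythropoietin receptor, and Alas2, the first enzyme of heme synthesis, overlapped. Cre is expressed from the Epor gene in the knockout mice, so an effect of the Cre allele on Epor cannot be told apart. The part of the erythroid share in the Bcl2l1 values was not tested.

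A comparison chosen after the data were seen set Bcl2l1 against the erythroid markers of its own array. The log2 value of the brightest probe set minus the marker mean was -1.94, -2.07 and -2.15 in the knockout mice, against -2.01, -2.09 and -1.98 in the controls. The groups overlapped and their means differed by -0.03, where the difference without the markers was 0.37. The marker mean itself differed by 0.39, so the difference of -0.03 follows from these 2 values and is not separate evidence. This subtraction places any gene with a change under 0.39 lower in the knockout mice, Bcl2l1 among them. On this scale the groups also overlapped for Bbc3 (-0.08), Bak1 (-0.17), Bid (-0.38) and Bad (-0.53). For Bcl2, Mcl1, Bcl2l11 and Pmaip1 the knockout mice lay wholly below. The share of all probe sets that lies wholly below on this scale was not computed, so this does not set these genes apart from others. The subtraction has no test, and it also takes part of any change of the markers themselves.

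**Figure D4:**
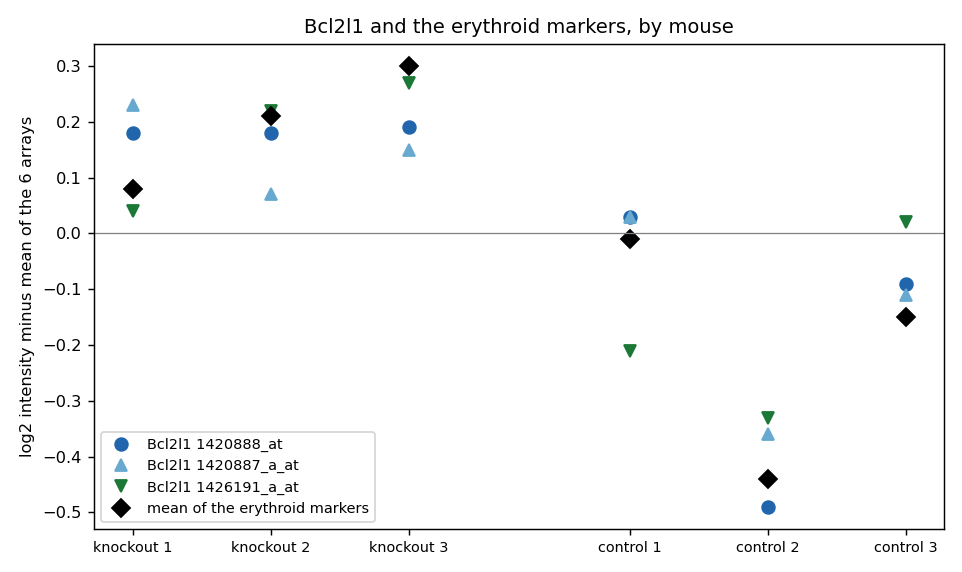
Log2 intensity minus its mean over the 6 arrays, by mouse, for the 3 brighter Bcl2l1 probe sets and for the mean of the 9 measured erythroid markers (black diamonds). Knockout mice lie between 0.04 and 0.30, and control mouse 2 is the lowest of the 6 in all 4 series, at -0.33 to -0.49.

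A promoter window of Bcl2l1 is shown because Gata1, which encodes the erythroid factor that binds GATA motifs, was also higher in every knockout mouse. RefSeq windows (GRCm38.p6) reach from 250 bases before to 50 after an annotated start. The 9 genes have 14 such windows, for 8 of them. Each was searched on both strands for a short motif of each of 3 factor families, and no window held more than 1 of them. The families were GATA, FOXO and STAT, and for the first of them the letters AGATAA were taken. They were found in 1 of the 14 windows, and 11.2% of the 32851 windows of all genes hold them. They lay 41 bases before the annotated start in the window at chr2:152828440-152828739 on the minus strand, printed here 5′ to 3′ with the motif in capitals.
Bcl2l1: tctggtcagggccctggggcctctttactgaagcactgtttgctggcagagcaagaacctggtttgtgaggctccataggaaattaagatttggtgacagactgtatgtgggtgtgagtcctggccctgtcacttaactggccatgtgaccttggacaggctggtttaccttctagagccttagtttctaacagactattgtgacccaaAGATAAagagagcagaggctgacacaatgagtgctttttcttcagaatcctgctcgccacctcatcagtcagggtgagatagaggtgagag
For STAT factors, which act below the erythropoietin receptor, the letters TTCNNNGAA were in 0 of the 14, and 8.3% of all windows hold them. These counts describe the letters in these windows alone. Neither of the other 2 windows of Bcl2l1 held the GATA letters. The intensity of Gata1 was 1657, 1813 and 1932 in the knockout mice, against 1299, 872 and 1171 in the controls. Gata1 is also among the erythroid markers, whose sum was higher in every knockout mouse. Binding of GATA1 was not measured, and its part in the Bcl2l1 values was not tested.

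Genes whose course over the 6 arrays was most like that of Bcl2l1 (1420888_at) were sought among 9801 other genes with a mean intensity of at least 100, by the root mean square difference of centred log2 values. The 5 nearest were Dhrs11 (0.036), a short-chain dehydrogenase, Wdr26 (0.044), a subunit of a ubiquitin ligase, Ppm1l (0.045), a protein phosphatase, Ppfibp1 (0.046), a liprin, and Gapvd1 (0.047), a regulator of endocytosis. Their log2 changes, 0.36, 0.37, 0.36, 0.38 and 0.41 in that order, were close to that of Bcl2l1, which the measure favours. None passed the test (limma, adjusted p = 0.3 to 0.427).

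Mcl1, a short-lived survival protein that early blood progenitors depend on, overlapped between the groups in all 6 probe sets. Its brightest probe set, 1448503_at, had 7890, 8069 and 7820 in the knockout mice, against 8625, 7790 and 7676 in the controls. The log2 change was -0.02 with an interval from -0.25 to 0.22 (limma, adjusted p = 0.963). The other 5 probe sets had log2 changes from -0.01 to 0.19. The highest, 1456243_x_at, had 4467, 4732 and 4276 in the knockout mice, against 4300, 3794 and 3727 in the controls (interval -0.07 to 0.45). The suffix _x_at marks a set whose probes can also bind other transcripts, and the 3 sets of Mcl1 that carry it had the 3 highest changes (0.14, 0.15 and 0.19).

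Bcl2 itself, the survival protein that names the family and that lymphocytes rely on, had log2 changes below 0 in all 5 probe sets, and none passed. The brightest, 1457687_at, had 751, 704 and 624 in the knockout mice, against 713, 775 and 656 in the controls, a log2 change of -0.04 with an interval from -0.33 to 0.24. The lowest change was that of 1440770_at, with 145, 121 and 83.1 in the knockout mice, against 169, 148 and 124 in the controls. It was -0.32 (limma, adjusted p = 0.579), and -0.12 without knockout mouse 3, which moved the value by over 1.5 times. The groups overlapped in all 5. The sum of pre-B markers was lower in every knockout mouse (values above), and its part in this was not tested.

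Bak1, which encodes a pore-forming effector, gave opposite directions in its 2 probe sets. The brightest, 1418991_at, had 320, 287 and 302 in the knockout mice, against 226, 290 and 258 in the controls. The groups overlapped, with 2 of 3 knockout mice above all controls, and the log2 change was 0.23 with an interval from -0.07 to 0.52 (limma, adjusted p = 0.507). Without control mouse 1 it was 0.14. The dim probe set 1425716_s_at had 10.8, 19.5 and 15.2 in the knockout mice, against 31.1, 32.0 and 31.7 in the controls. Every knockout value was below every control value, and the controls were within 1 unit of each other. Its log2 change of -0.62 had the lowest adjusted p of the 29 (limma, adjusted p = 0.174). The size depended on the constant added before taking logs, at -1.05 with a constant of 1 (adjusted p = 0.247) and -0.27 with one of 64, and over all alternatives the adjusted p was 0.155 to 0.431. All 6 values lay below the array medians, and the suffix _s_at marks probes shared by several transcripts. BAX, the other main effector, was not analysed here.

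Among the BH3-only genes, Bcl2l11, which encodes BIM, overlapped between the groups in all 5 probe sets. Its brightest probe set, 1456005_a_at, had 707, 819 and 706 in the knockout mice, against 821, 778 and 705 in the controls. The log2 change was -0.04 with an interval from -0.32 to 0.23 (limma, adjusted p = 0.912). The probe set 1435448_at had 405, 443 and 397 in the knockout mice, against 436, 399 and 407 in the controls, a log2 change of 0.00. The other 3 had changes from -0.22 to -0.09.

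Bbc3, which encodes PUMA, a target of p53, had the highest change of the BH3-only genes. It was read by 1 probe set, 1423315_at, with 243, 211 and 211 in the knockout mice, against 156, 158 and 214 in the controls. Control mouse 3 stood among the knockout mice and the other 2 controls below them. The means were 222 ± 18.6 in the knockout mice and 176 ± 32.7 in the controls (SD, n = 3 each), a log2 change of 0.32 with an interval from -0.04 to 0.67 (limma, adjusted p = 0.448).

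Promoter windows of these 2 genes are shown because both hold GTAAACA, the letters taken here for FOXO factors, and FOXO3 is known to activate both genes in other cells. The letters alone do not tell which factor binds. The motif was in 2 of the 14 windows and in 3.65% of all windows. In Bcl2l11 it lay 227 bases before the annotated start, in the window at chr2:128125788-128126087 on the plus strand, and in Bbc3, on the opposite strand, 167 bases before the annotated start, in the window at chr7:16310011-16310310 on the plus strand. Both are printed 5′ to 3′ with the motif, for Bbc3 its reverse complement, in capitals.
Bcl2l11: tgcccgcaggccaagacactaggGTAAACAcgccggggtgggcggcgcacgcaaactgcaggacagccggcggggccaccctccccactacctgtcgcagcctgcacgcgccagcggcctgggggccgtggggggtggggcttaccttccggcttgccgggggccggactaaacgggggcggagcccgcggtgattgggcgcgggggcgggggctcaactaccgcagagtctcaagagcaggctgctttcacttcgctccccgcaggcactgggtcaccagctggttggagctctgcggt
Bbc3: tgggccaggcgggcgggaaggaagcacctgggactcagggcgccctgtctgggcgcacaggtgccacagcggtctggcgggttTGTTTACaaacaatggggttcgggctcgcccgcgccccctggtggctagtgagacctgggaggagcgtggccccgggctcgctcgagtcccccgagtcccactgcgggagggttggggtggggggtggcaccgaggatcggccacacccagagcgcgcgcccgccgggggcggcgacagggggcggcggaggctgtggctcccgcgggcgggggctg
Foxo3 had 5614, 6650 and 6497 in the knockout mice, against 4589, 3200 and 4067 in the controls. Beside it the log2 changes were 0.32 for Bbc3 and -0.04 for Bcl2l11. Whether FOXO3 binds here was not measured.

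Pmaip1, which encodes NOXA, a partner of MCL1, stood lower in every knockout mouse without passing. Its 1 probe set, 1418203_at, had 263, 239 and 260 in the knockout mice, against 297, 341 and 278 in the controls. The groups did not overlap. The means were 254 ± 13.0 in the knockout mice and 306 ± 32.2 in the controls (SD, n = 3 each), a log2 change of -0.25 with an interval from -0.52 to 0.03 (limma, adjusted p = 0.442). With 1425716_s_at of Bak1 it is the second of the 2 probe sets whose knockout values all lay below the controls. The marker sums of pre-B cells, neutrophils, and basophils and mast cells were lower in the same 3 mice (values above), and their part in this was not tested.

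Bad and Bid overlapped between the groups in all 5 of their probe sets. BAD is switched off by survival kinases, and BID is cut by caspase-8 to link death receptors to mitochondria. The brightest probe set of Bad, 1416583_at, had 331, 276 and 280 in the knockout mice, against 308, 340 and 328 in the controls, a log2 change of -0.14 with an interval from -0.41 to 0.14. The dimmer 1416582_a_at had a change of -0.09. The brightest probe set of Bid, 1417045_at, had 788, 732 and 759 in the knockout mice, against 724, 813 and 725 in the controls, a log2 change of 0.01 with an interval from -0.23 to 0.25. The other 2 had changes of -0.01 and 0.13.

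By role, the 15 probe sets of the survival genes had 8 log2 changes above 0 and 7 below, with a median of 0.08. The 12 of the BH3-only genes had 4 above and 8 below, with a median of -0.07. Over all probe sets 48.8% were above 0. By the brightest probe set of each gene, the 3 survival genes had 1 above and 2 below, with a median of -0.02. The 5 BH3-only genes had 2 above and 3 below, with a median of -0.04. The difference between the roles was not tested, and Mcl1 and Bcl2 alone give 11 of the 15.

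The rest of the pathway was read from 7 further lists, each gene by its brightest probe set. None of the genes measured in them passed the threshold of the same limma comparison over all probe sets, which gave all adjusted p-values in the next paragraphs. Shares of all probe sets given beside these lists cover every probe set, dim ones included, so they are not a like background. Of 14 other BCL2 family proteins 10 were measured, 5 above 0 and 5 below, with a median log2 change of 0.00. Bcl2l12, an atypical member, had one of -0.20, Bcl2l13, a mitochondrial receptor for autophagy, one of 0.18, and Hrk, a BH3-only gene best known in neurons, one of 0.23 (limma, adjusted p = 0.528 to 0.701). The groups overlapped in all 10. Leaving out 1 mouse at a time gave 0.01 to 0.39 for Hrk and 0.08 to 0.26 for Bcl2l13, and 1 of the 2 probe sets of Hrk and of Bcl2l12 pointed the other way. The Bcl2a1 genes share probe sets and were therefore not named. Listed genes without a probe set of their own symbol were not analysed here.

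Downstream of the mitochondrion, 11 of 13 genes of caspases and the apoptosome were measured, with a median of -0.04. Htra2, a mitochondrial protease that antagonises the inhibitors of apoptosis, had 1017, 1123 and 1344 in the knockout mice, against 725, 860 and 913 in the controls, and its groups did not overlap (log2 change 0.47, limma adjusted p = 0.304). This probe set carries the suffix _s_at, which marks probes shared by several transcripts. Casp6, an executioner caspase, had a log2 change of -0.16 (-0.23 to -0.08 on leaving out 1 mouse), and Casp2, an initiator, one of 0.12. All 6 measured inhibitors of apoptosis had changes between -0.03 and 0.08, among them Birc3 (0.08), Birc6 (0.04) and Birc2 (0.04).

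In the death receptor pathway 7 of 8 genes were measured, with a median of 0.00. Tnfrsf10b, the mouse TRAIL receptor, was dim, at 42.5, 42.5 and 20.6 in the knockout mice, against 54.4, 52.1 and 54.4 in the controls. Its groups did not overlap (log2 change -0.48, limma adjusted p = 0.405), without knockout mouse 3 the change was -0.25, and the other of its 2 probe sets pointed the opposite way. Fasl, the ligand of the death receptor Fas, had a log2 change of 0.24 and Cflar, an inhibitor of caspase-8, one of 0.09, with 3 of its 5 probe sets in the other direction.

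Among 11 outer membrane channels and partners of BCL2 proteins, 9 had changes above 0 and the median was 0.16. Bag1, a cochaperone first found as a BCL2 partner, had 4075, 3583 and 3785 in the knockout mice, against 2837, 2714 and 2996 in the controls, a log2 change of 0.42 ± 0.10 (SE; limma, adjusted p = 0.221). Vdac3, a channel for metabolites, had 4979, 5078 and 5256 in the knockout mice, against 4170, 4082 and 4328 in the controls, a log2 change of 0.28. Becn1, an autophagy protein that BCL2 binds, had one of 0.28 in a probe set with the suffix _s_at, while 2 of its 5 probe sets pointed the other way. In each of these 3, and in Bnip2, a BCL2 partner with a log2 change of 0.16 and 4 of its 8 probe sets in the other direction, the knockout mice lay wholly above the controls, which makes 4 of 11, beside 10.6% of all probe sets. Among 4 enzymes that set the stability of MCL1, the ligase subunit Btrc had a log2 change of 0.53 (0.32 without control mouse 2) with 2 of its 5 probe sets in the other direction, the deubiquitinase Usp9x one of 0.24 and the ligase Huwe1 one of -0.03.

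Upstream survival signalling held the largest difference of these 7 lists. Here 14 of 17 genes were measured, 10 above 0 and 4 below, with a median of 0.14. The knockout mice lay wholly above the controls in 6 and wholly below in 2, beside 10.6% and 8.91% of all probe sets. Pim1, a kinase that STAT5 induces and that phosphorylates BAD, had 4860, 5444 and 5198 in the knockout mice, against 3241, 2587 and 2743 in the controls. The log2 change was 0.86 ± 0.12 (SE; limma, adjusted p = 0.0889), above every control in all 3 mice. Foxo3 had a change of 0.67 and Gata1 one of 0.70 (limma, adjusted p = 0.215 and 0.216), with values given above, and neither overlapped. Pim1 passed under 3 of the alternatives and Foxo3 and Gata1 under 1 each, as described with the processing. The receptor pathway, named after its values were seen, had no common direction. Epor had 830, 1013 and 1237 in the knockout mice, against 1322, 890 and 1199 in the controls, with overlap. Cre is expressed from this gene in the knockout mice, so an effect of the Cre allele on Epor cannot be told apart. The log2 changes were 0.19 for the kinase Jak2, -0.20 for Stat5a, with 1 of its 2 probe sets in the other direction, and 0.01 for Stat5b, and none of the 3 passed. Gata1 and Epor also belong to the erythroid markers, whose sum was higher in every knockout mouse.

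**Figure D5:**
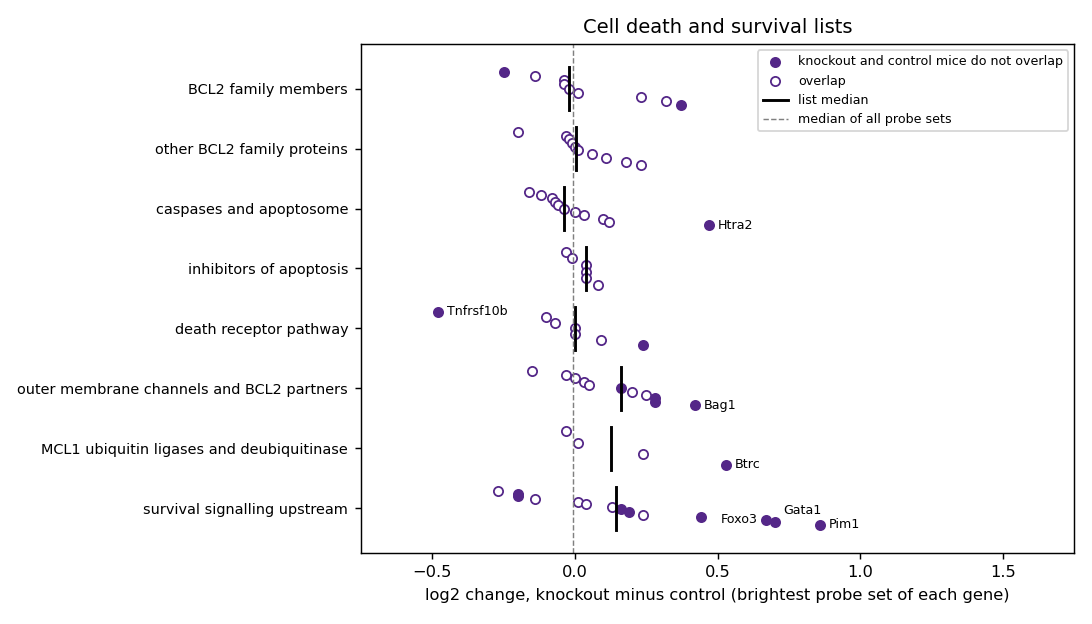
Log2 change, knockout minus control, of the brightest probe set of each measured gene in 8 lists (points, filled where the mice of the groups do not overlap), with each list's median (black bar) and the median of all probe sets (dashed). Pim1, Gata1 and Foxo3 lie at 0.67 to 0.86, and no gene passed the test.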

How the data were processed

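RNA was prepared with Trizol and labelled as cRNA for Affymetrix arrays, per the labels' protocols. The authors deposited linear intensities per probe set and array; no source used here gives the summarisation, background correction or scaling. Annotation gave 1 symbol to 34945 probe sets, and symbols were checked through Entrez IDs against RefSeq GRCm38.p6, which matched all 29 BCL2 family probe sets. Members and gene lists were chosen with earlier results of these data known.

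Values became log2(intensity + 16). Array medians and interquartile ranges of log2 values differed by at most 0.057 and 0.070, under the limit of 0.1 for normalizing again. The test was limma's moderated one (version 3.58.1, R 4.3.3; two-sided, no intensity trend) over all 45037 probe sets, and exact permutation tests used scipy 1.17.1 in Python 3.11.15. A log2 change on this scale understates that of dim probe sets. The number of mice limits the precision.

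In simulated data of 45037 probe sets, with 50 of the brighter ones changed at each size, the comparison recovered 96% of rises by 2 log2 units and 56% of rises by 1, and 3.8% of calls were false. The noise was drawn for each probe set alone, without variation shared within a mouse. Changes smaller than 1 log2 unit, as in the BCL2 family, were not simulated. Named genes were all 9 members, and from each list those past the threshold or up to 3 with the lowest p. Alternatives were quantile normalization, array weights, median centring, constants of 1 and 64, limma's trend with robust moderation, the brightest 50% of probe sets, the mouse number as a replicate block and leaving out each mouse.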

Additional observations from a re-analysis of the deposited data

How the results depend on the processing

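No BCL2 family probe set passed the threshold under any of the 14 alternatives, and the lowest adjusted p was 0.112, that of Bcl2l1 (1420888_at) with an intensity trend and robust moderation (0.112 to 0.574 over its alternatives). In the brightest 50% only 26 of the 29 could be tested. Apart from leaving out mice, 220 of 229 values kept their direction. The 9 that did not were within 0.05 of 0, namely Mcl1 1448503_at (0.0042 with array weights, 0.0024 with median centring), Mcl1 1416881_at (0.04 and 0.01 with the same), Bid 1448560_at (0.05 and 0.0046 with the same), and, with quantile normalization, Mcl1 1416880_at (-0.04), Bcl2l11 1435448_at (-0.01) and Bid 1417045_at (-0.03). On leaving out 1 mouse at a time, 155 of 174 kept it. The 9 probe sets that turned ranged from -0.05 to 0.04 (Mcl1 1448503_at), -0.09 to 0.09 (Mcl1 1416881_at), -0.10 to 0.03 (Bcl2 1457687_at), -0.15 to 0.05 (Bcl2 1437122_at), -0.17 to 0.0049 (Bcl2 1422938_at), -0.11 to 0.0045 (Bcl2l11 1456005_a_at), -0.04 to 0.04 (Bcl2l11 1435448_at), -0.02 to 0.07 (Bid 1417045_at) and -0.13 to 0.05 (Bid 1448560_at).

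The count over all 45037 probe sets, 66, was 1445 with an intensity trend and robust moderation, 558 with a constant of 64 and 38 with a constant of 1. It was 14 with the replicate block, 27 to 41 without 1 mouse, and 839 of the 22518 in the brightest 50%. The cause was not tested. Of the other pathway genes 6 passed with the intensity trend and robust moderation, namely Pim1 (adjusted p = 0.000104, 0.000104 to 0.431 over the alternatives), Bag1 (0.00613, range 0.00613 to 0.439), Gata1 (0.00857, range 0.00857 to 0.432), Foxo3 (0.00933, range 0.00933 to 0.433), Vdac3 (0.0233, range 0.0233 to 0.513) and Htra2 (0.0412, range 0.0412 to 0.508). Pim1 and Bag1 also passed in the brightest 50%, and Pim1 with a constant of 64. Of the cell type markers, Epb42, Igll1 and Vpreb1 passed under 3 alternatives each. Ermap, Gata1, Hemgn, Tfrc, Csf1r and Mcpt8 passed with the intensity trend and robust moderation alone. In that setting 5 of 9 erythroid markers passed by their brightest probe sets, beside 1445 of all 45037 probe sets, dim ones included. No probe set of Bcl2l1 passed in it. A mean signal below the array median limits 1426050_at of Bcl2l1, 1425716_s_at of Bak1 and 1426334_a_at of Bcl2l11. That of 1447873_x_at of Bid, at 1.17 times the array median, was near it. The mouse numbers gave no sign of pairing: the deviations of same-numbered mice correlated at -0.066, -0.003 and -0.066. Those of mice with different numbers correlated at -0.033 to 0.086. Whether any mice shared a litter cannot be told from these values.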
